A study of Mus musculus with 6 samples.

Results

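Transcripts of 7 genes for fatty acid uptake were read in mature 3T3-L1 adipocytes from a PCR array of fatty acid metabolism. They were *Lpl* and every gene on the plate whose symbol begins with Slc27a, of which there were 6 (*Slc27a1* to *Slc27a6*). Uptake itself was not measured on the array. The 7 were chosen by symbol, out of 84 genes on the plate. The rule itself uses no measured value, but it was set with earlier results of these data known. 3 of them, *Lpl*, *Slc27a1* and *Slc27a4*, were measured below 35 PCR cycles in all 6 samples. *Slc27a3* was so in 5 samples, *Slc27a5* in 1, and *Slc27a2* and *Slc27a6* in none.

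3T3-L1 is an established line of mouse preadipocytes that fill with lipid droplets after a hormonal stimulus. All 6 samples came from cells that were induced with insulin, dexamethasone and isobutylmethylxanthine, kept in serum-containing medium until day 14 and then cultured for a further 24 hours. In 3 samples the medium of those 24 hours held recombinant murine interleukin-15 (rmIL-15) at 500 ng/ml, and in the other 3 samples it held none (untreated). The study asked whether this cytokine, given to fat cells that have already matured, alters the expression of genes for fatty acid handling. The groups follow the sample titles, and the descriptions of the samples as test or control match them. A further label, on the activating agent, names them the other way round, so every direction given here rests on the titles and descriptions. Whether the 3 samples of a group were grown as separate cultures is not given in the sources used here. If they were not, the p-values reflect technical spread alone.

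Adipocytes do not take up triglyceride as such. Lipoprotein lipase, the product of *Lpl*, is secreted and splits the triglyceride of circulating lipoproteins into fatty acids at the capillary wall. The Slc27a family encodes the fatty acid transport proteins (FATP), membrane proteins that promote fatty acid entry and most of which also carry an acyl-CoA synthetase activity, so that the incoming acid is trapped as its CoA ester. FATP1 (*Slc27a1*) is the member best known from fat and muscle and FATP4 (*Slc27a4*) is widespread, whereas FATP2 (*Slc27a2*) and FATP5 (*Slc27a5*) are known from liver and FATP6 (*Slc27a6*) from heart.

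The quantity read from each well was the threshold cycle (Ct), the number of PCR cycles after which the fluorescence of the product crosses a fixed line. A lower Ct means more starting RNA, and 1 cycle was taken as a doubling. A Ct above 35, or a well with no Ct (undetermined), was held as a limit. Each sample occupied 1 plate, made from 400 ng of RNA. Between 71 and 74 of the 84 genes were below Ct 35 on a plate, the genomic DNA control well lay between 36.6 and 39.8 on 5 plates and was undetermined on that of rmIL-15 replicate 2, and the 2 kinds of assay control lay between 21.8 and 23.0 (reverse transcription) and between 19.0 and 19.4 (PCR). The labelled cell type was checked with markers on the plate. The adipocyte genes *Fabp4*, *Lpl*, *Lipe*, *Gpd1* and *Acsl1* were below Ct 35 in all 6 samples, between 16.4 and 23.2. Of the 84 genes 69 were below 35 in all samples, so the limit alone does not set the adipocyte genes apart. *Fabp4*, the fatty acid carrier of fat cells, lay between 16.4 and 17.1. Of the liver genes reported here, *Fabp1* and *Slc27a2* were below the limit in 0 samples and *Slc27a5* in 1. Among the markers of other tissues, *Fabp3* and *Cpt1b* (muscle and heart) lay between 30.6 and 31.9 and *Acsbg1* (brain) between 28.9 and 30.4, while *Gk2* and *Acsbg2* (testis) and *Fabp6* (intestine) were below the limit in none. The other intestinal marker, *Fabp2*, was below it in 4 samples, the lowest at 33.5.

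*Lpl* was the most abundant of the 7 genes by far, and it was the gene with the second lowest mean Ct of the 84. Its raw Ct was 18.31, 17.77 and 17.89 in rmIL-15 replicates 1, 2 and 3, and 17.44, 17.50 and 18.18 in the untreated replicates 1, 2 and 3. The raw values of both groups overlapped, since untreated replicate 3 fell among the rmIL-15 samples. *Slc27a1*, whose product FATP1 moves to the surface of fat cells when insulin is present, gave 24.29, 23.63 and 24.09 with rmIL-15 and 23.85, 24.14 and 25.29 without. Here untreated replicate 3 was the highest of all 6, and the other 5 lay close together. *Slc27a4* was read at 26.50, 26.27 and 26.37 with rmIL-15 and at 25.97, 26.36 and 27.39 without, with the same library again highest. *Slc27a3*, which encodes FATP3, a member for which the synthetase activity is better documented than transport, gave 29.51, 29.19 and 29.90 with rmIL-15, and 29.37 and 30.13 in the untreated replicates 1 and 3. The well of untreated replicate 2 was undetermined, although the other 5 wells of *Slc27a3* spanned only 29.2 to 30.1.

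The order *Lpl*, *Slc27a1*, *Slc27a4*, *Slc27a3* was the same on all 6 plates, the undetermined well taken as last, and the ranges of neighbours in this order did not overlap: 17.4 to 18.3, 23.6 to 25.3, 26.0 to 27.4 and, over its 5 determined wells, 29.2 to 30.1 cycles. By mean Ct they were the 2nd, 27th, 48th and 64th of the 84 genes. Each gene was read from 1 amplicon, with amplification efficiencies not given in the sources used here, so levels of different genes can be set side by side only approximately. In the untreated group the *Lpl* transcript stood 6.72 ± 0.36 cycles (SD, n = 3) below *Slc27a1*, which is 106-fold more RNA if every cycle doubles, and 8.87 ± 0.34 cycles (SD, n = 3) below *Slc27a4*, or 467-fold.

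**Figure D1:**
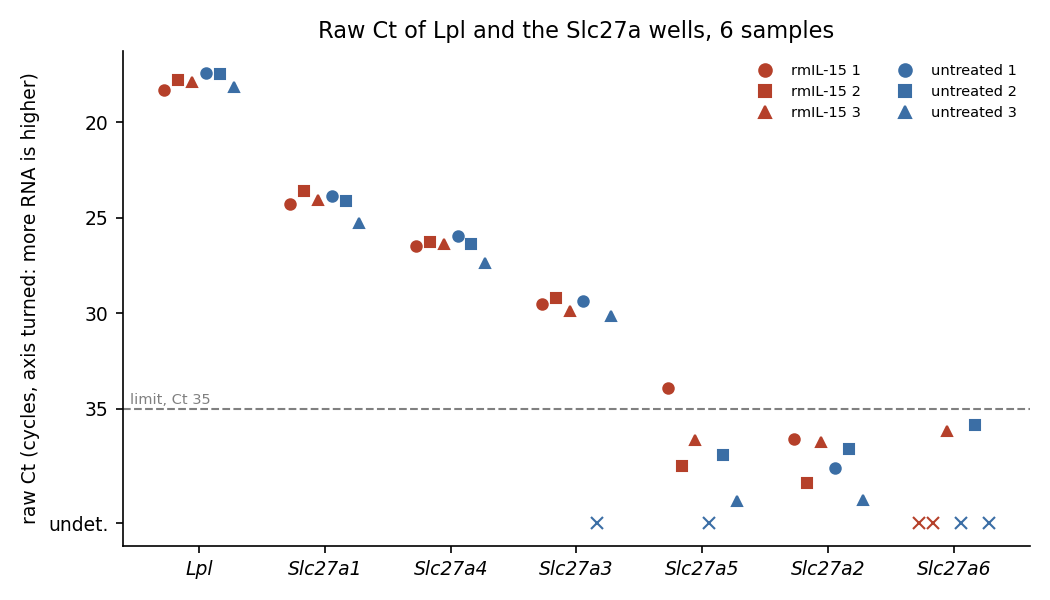
Raw Ct in cycles (vertical axis, turned so that more RNA is higher) of the 7 genes in each of the 6 samples, red for rmIL-15 and blue for untreated, with a different marker for each replicate number; crosses are undetermined wells and the dashed line is the limit of 35. The 4 expressed genes form separate steps from *Lpl* at 17.4 to 18.3 down to *Slc27a3* at 29.2 to 30.1, and almost all wells of the other 3 lie beyond the limit.

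The 3 remaining transport proteins lay at or beyond the limit. *Slc27a2* had a Ct in all 6 samples, between 36.6 and 39.8, the interval that the 5 determined genomic DNA control wells also spanned. *Slc27a6* was undetermined in 4 samples and read 36.16 in rmIL-15 replicate 3 and 35.88 in untreated replicate 2. For both, the limit places the level at least 105693-fold below that of *Lpl* on the same plate, taking the plate on which this bound is the weakest. *Slc27a5* was undetermined in untreated replicate 1 and between 36.6 and 39.8 in 4 samples, but at 33.91 in rmIL-15 replicate 1, which was 15.60 cycles above *Lpl* there. The other 2 rmIL-15 wells were at 38.00 and 36.64. None of these 3 genes entered the tests, because none was below Ct 35 in all 3 samples of a group. They are not shown to be absent: the statement covers what a Ct of 35 can separate.

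*Slc27a1* and *Slc27a4* are the members whose Ct moved most alike over all 6 plates, though not within the rmIL-15 group (values given further on). For this reason the sequence around a start site of each is shown, from RefSeq's annotation on the build GRCm38.p6. It covers 250 bases before to 50 after the start and is written 5′ to 3′. The array's deposited tables name no genome build, and RefSeq gives *Slc27a1* 3 such windows, of which the first by position is printed. Which of its starts is used in these cells was not measured. The interval is chr8:71568621-71568920 on the plus strand for *Slc27a1* and chr2:29802384-29802683 on the plus strand for *Slc27a4*. Capitals mark CCAAT boxes in the former and GC boxes, spelled GGGCGG, in the latter.
Slc27a1: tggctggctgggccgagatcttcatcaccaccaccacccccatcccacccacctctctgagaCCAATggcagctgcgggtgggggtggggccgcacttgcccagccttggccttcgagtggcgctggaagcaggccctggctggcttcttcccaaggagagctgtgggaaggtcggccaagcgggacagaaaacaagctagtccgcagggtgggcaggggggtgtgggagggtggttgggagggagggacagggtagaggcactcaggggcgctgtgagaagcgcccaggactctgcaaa
Slc27a4: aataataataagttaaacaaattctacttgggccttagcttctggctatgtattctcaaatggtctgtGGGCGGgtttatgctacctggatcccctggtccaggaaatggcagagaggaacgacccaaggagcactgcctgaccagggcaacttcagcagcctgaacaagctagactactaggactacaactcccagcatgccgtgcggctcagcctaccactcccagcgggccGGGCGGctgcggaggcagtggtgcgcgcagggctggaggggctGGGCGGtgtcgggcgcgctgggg

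Both strands were searched for 4 short motifs. The *Slc27a4* window held 3 GC boxes and 0 CCAAT boxes, and the *Slc27a1* window shown held 1 CCAAT box and 0 GC boxes. The 2 further windows of *Slc27a1* held 1 and 3 GC boxes, and 0 and 1 CCAAT boxes. Among the 32851 windows of this length in the table, 35.7% held a GC box and 37.4% a CCAAT box. The TATA box, spelled TATAAA, is present in 13.6% of windows, and the hexamer bound by nuclear receptors such as PPAR-gamma, spelled AGGTCA, in 16.3%. Neither was found in the windows of *Slc27a1*, *Slc27a3* or *Slc27a4*, and the *Slc27a2* window held 1 of the latter. No window of *Lpl*, *Slc27a5* or *Slc27a6* was searched. A match says only that the letters are there, and the lack of one says nothing about whether a factor binds.

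Group differences were first expressed relative to the well annotated *Gapdh*, the reference that the study's methods name, as the negative of the Ct difference. This scale is log2, and higher means more RNA. In bulk cultures, fewer cells of a type and less RNA per cell cannot be told apart. *Lpl* was at 7.32, 7.39 and 7.63 with rmIL-15 and at 7.80, 7.68 and 7.79 without. All 3 rmIL-15 samples were below all 3 untreated ones, at 7.44 ± 0.16 against 7.76 ± 0.07 (SD, n = 3 each). The difference was −0.31 (standard error 0.13, 95% interval −0.625 to −0.00405), a level of 0.804 times the untreated one. It did not pass in limma's fit over the 74 genes tested, where its adjusted p was 0.48 and its unadjusted p 0.048, and the two-sided exact permutation test gave p = 0.1, the smallest that 3 samples against 3 allow.

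The transport proteins had the opposite sign on this scale, within wider errors. *Slc27a1* was at 1.34, 1.53 and 1.42 with rmIL-15 and at 1.40, 1.04 and 0.68 without. The rmIL-15 samples were tightly grouped (1.43 ± 0.10, SD, n = 3) and the untreated ones spread (1.04 ± 0.36), and untreated replicate 1 lay within the rmIL-15 range. Its difference was 0.39 (standard error 0.20, 95% interval −0.106 to 0.895, limma adjusted p = 0.58). *Slc27a4* stood at −0.87, −1.11 and −0.85 with rmIL-15 and at −0.72, −1.18 and −1.42 without. The groups overlapped, with untreated replicates both highest and lowest of the 6. The difference of *Slc27a4* was 0.16 (standard error 0.21, 95% interval −0.346 to 0.676, limma adjusted p = 0.82), an interval that holds both a moderate fall and a moderate rise. *Slc27a3* was at −3.88, −4.03 and −4.38 with rmIL-15 and at −4.12 and −4.16 in untreated replicates 1 and 3, so those 2 lay inside the rmIL-15 range. Its fitted difference of 1.94 (standard error 1.58, limma adjusted p = 0.69) was made by the undetermined well, set to 35 and hence to −9.82. Without that library the difference was 0.04. *Slc27a3* was tested only because its 3 rmIL-15 wells were below 35, and its fitted values support nothing about the groups.

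**Figure D2:**
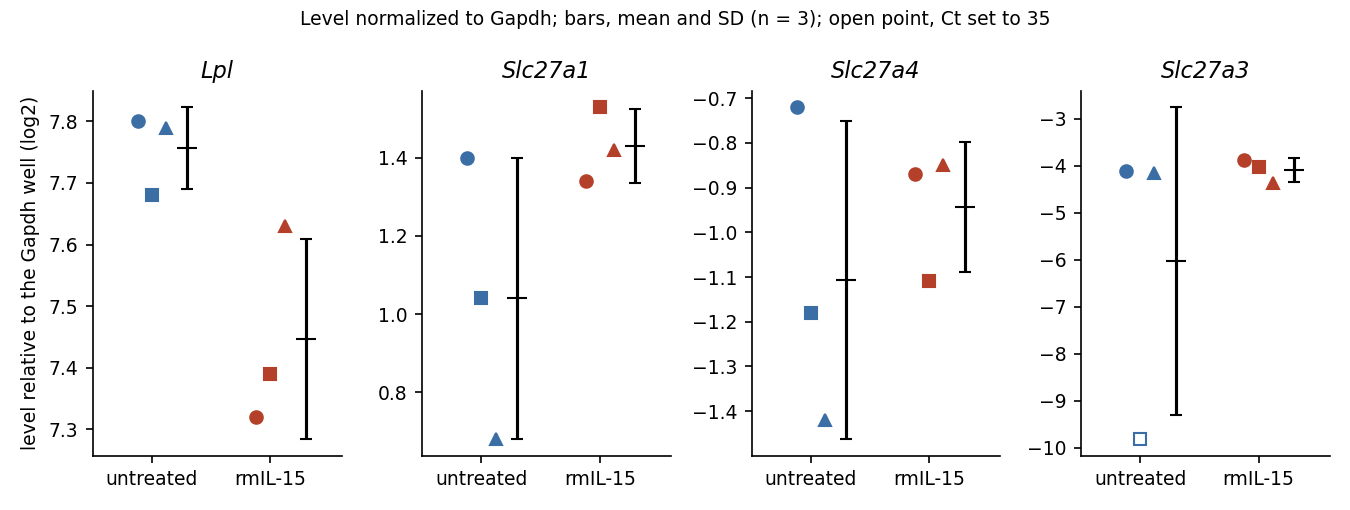
Level relative to the *Gapdh* well (vertical axis, log2, its own range in each panel and not starting at 0) of *Lpl*, *Slc27a1*, *Slc27a4* and *Slc27a3* in each sample, with the mean and SD of each group (n = 3); the open square is the *Slc27a3* well set to Ct 35. The groups separate for *Lpl*, at 7.32 to 7.63 with rmIL-15 against 7.68 to 7.80 without, and overlap for the 3 transport proteins.

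Of the 4 genes tested against *Gapdh*, 0 passed an adjusted p under 0.05, as did 0% of the 74 genes tested; the smallest adjusted p on the plate was 0.11, and the methods' t-test on the same values also called 0 after adjustment. At an unadjusted p under 0.05, 1 of the 4 passed (*Lpl*), where 9.46% of the genes tested did, and *Lpl* did so in 6 of 19 alternatives to this fit. 1 of the 4, again *Lpl*, was lower with rmIL-15 without overlap between the groups, against 14.9% of the genes tested. The median difference of the 74 genes was −0.11 and 53 of them had a negative sign, so *Lpl* lay on the side of most of the plate and *Slc27a1* and *Slc27a4* on the other. *Slc27a3*, with its undetermined well, is among the 4, and 3 remain without it. With 4 members, 1 gene is the smallest share above 0 that could be counted, and these counts are not read as particular to the members.

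The size of these differences depended on the reference. The identity of the *Gapdh* well is itself in doubt. Its mean Ct was above that of 38 of the 84 genes, at 25.4 ± 0.243 with rmIL-15 and 25.5 ± 0.438 without (SD, n = 3). The wells annotated *Actb*, *Hsp90ab1*, *B2m* and *Gusb* had group means between 18.5 and 20.3. Their names rest on the same annotation, whose order was not tested. On the authors' normalized values *Lpl* was at −0.30 with an unadjusted p of 0.12 in limma, against 0.048 with *Gapdh*. *Lpl* kept a negative sign with each of the 5 reference wells, with their mean and with plates centred on their median, from −0.66 with *Hsp90ab1* to −0.21 with *Gusb*. *Slc27a1* kept a positive sign, from 0.05 with *Hsp90ab1* to 0.50 with *Gusb*. *Slc27a4* was between 0.12 and 0.27 in all of these except with *Hsp90ab1*, where it was −0.18. The well annotated *Hsp90ab1*, a chaperone gene, had a Ct of 18.6 ± 0.117 with rmIL-15 and 19.0 ± 0.525 without (SD, n = 3).

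**Figure D3:**
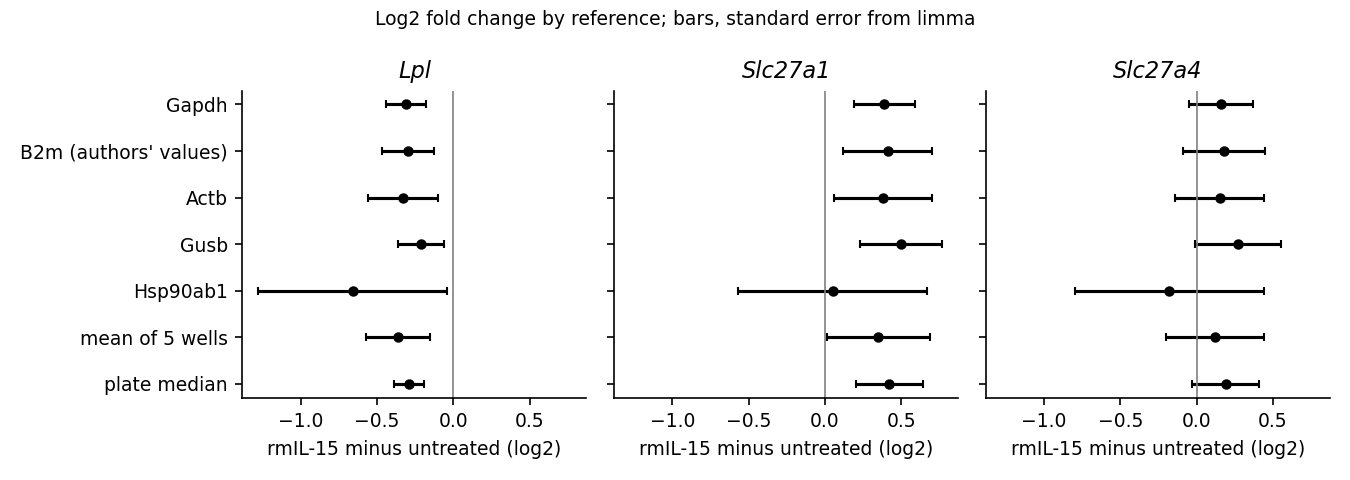
Difference between rmIL-15 and untreated samples (horizontal axis, log2) of *Lpl*, *Slc27a1* and *Slc27a4* under 7 choices of reference, with the standard error from limma. *Lpl* is negative in every row, from −0.66 to −0.21, *Slc27a1* positive in every row, from 0.05 to 0.50, and *Slc27a4* crosses 0 with *Hsp90ab1*.

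A comparison within the plate needs no reference well: the Ct of a transport protein minus that of *Lpl* in the same sample. It asks whether the RNA of the transport proteins, relative to the RNA of the lipase, differed between the groups. The proteins and their activity were not measured on the array. For *Slc27a1* the distance was 5.98, 5.86 and 6.20 cycles with rmIL-15 and 6.41, 6.64 and 7.11 cycles without. Every treated sample was closer than every untreated one. The group means were 6.01 ± 0.17 and 6.72 ± 0.36 cycles (SD, n = 3 each), so that *Lpl* stood 64.5-fold above *Slc27a1* with rmIL-15 and 106-fold above it without. On the log2 scale *Slc27a1* was 0.71 higher relative to *Lpl* with rmIL-15 (standard error 0.21, 95% interval 0.181 to 1.24), 1.63-fold. This missed the threshold after adjustment over the 73 genes fitted in the same way (limma adjusted p = 0.27, unadjusted p = 0.017), and the exact two-sided permutation test gave p = 0.1, its smallest possible value.

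*Slc27a4* was 8.19, 8.50 and 8.47 cycles above *Lpl* with rmIL-15 and 8.53, 8.86 and 9.21 cycles above it without. The groups did not overlap here either, but they came within 0.026 cycles of each other. The means of 8.39 ± 0.17 and 8.87 ± 0.34 cycles (SD, n = 3 each) correspond to 335-fold and 467-fold more *Lpl*. Its difference of 0.48 on the log2 scale (standard error 0.21, 95% interval −0.0314 to 0.99, 1.39-fold) gave an adjusted p of 0.39 in limma and p = 0.1 in the exact permutation test. *Slc27a3* was 11.20, 11.42 and 12.01 cycles above *Lpl* with rmIL-15 and 11.92 and 11.95 cycles above it in the 2 untreated samples with a Ct. These overlapped, and the fitted difference of 2.25 (standard error 1.54, limma adjusted p = 0.49) again contained the undetermined well.

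**Figure D4:**
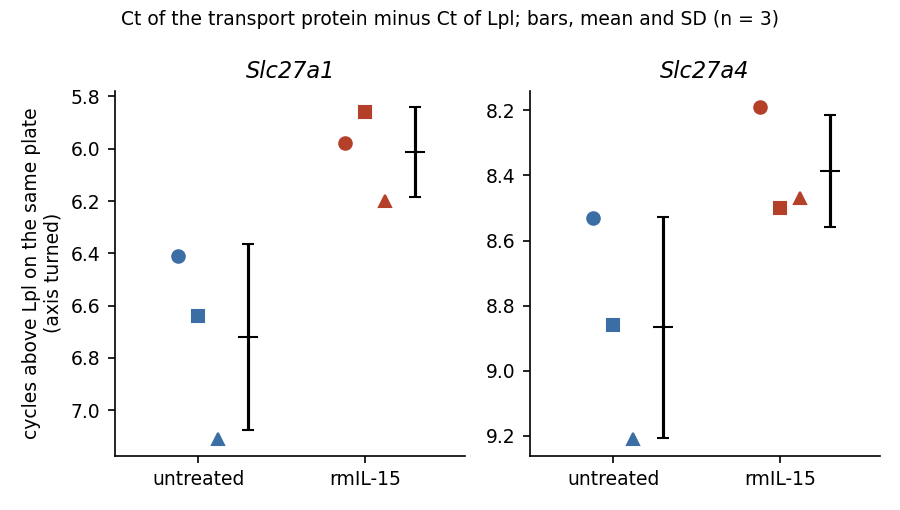
Ct of *Slc27a1* and of *Slc27a4* minus the Ct of *Lpl* on the same plate, in cycles (vertical axis, turned so that more transport protein RNA relative to *Lpl* is higher, not starting at 0), for each sample with the mean and SD of each group (n = 3). All 3 rmIL-15 samples lie nearer to *Lpl* than all 3 untreated samples, at 5.86 to 6.20 against 6.41 to 7.11 cycles for *Slc27a1* and at 8.19 to 8.50 against 8.53 to 9.21 for *Slc27a4*.

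Of these 3 comparisons with *Lpl*, that of *Slc27a3* with its undetermined well included, 0 passed an adjusted p under 0.05, and 0% of the 73 genes compared with it did, and the methods' t-test likewise called 0 after adjustment. At an unadjusted p under 0.05, 1 of the 3 passed (*Slc27a1*), where 12.3% of the 73 genes did. 2 of the 3 were higher relative to *Lpl* with rmIL-15 without overlap of the groups, beside 24.7% of the 73. Since *Lpl* itself is in every one of these distances, most genes shifted the same way: 63 of the 73 had a positive sign, with a median of 0.21. By unadjusted p, *Slc27a1* was the third of the 73, after *Lipe* (0.82) and *Acsl5* (0.55). What is measured for *Slc27a1* and *Slc27a4* is therefore a shift of 0.71 and 0.48 beside a plate median of 0.21.

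The values of 1 untreated library stood apart. Relative to its own mean over the 6 plates, the Ct of untreated replicate 3 was higher by 0.33 cycles for *Lpl*, 1.08 for *Slc27a1* and 0.91 for *Slc27a4*, while the median of the genes below Ct 35 on all plates was higher by 0.57. In that library the RNA of *Slc27a1* and *Slc27a4* was thus further below its own mean than the plate median was. The RNA of *Lpl* was below its own mean by less. Without it, *Slc27a1* was 0.51 higher relative to *Lpl* with rmIL-15 and *Slc27a4* was 0.31 higher, and the difference of *Slc27a1* against *Gapdh* was 0.21. Without untreated replicate 1 they were 0.87, 0.65 and 0.58. The sign was the same without either library, and the size was not.

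Over all 6 plates, *Slc27a1* and *Slc27a4* followed each other more closely than either followed *Lpl*, but this did not hold within the rmIL-15 group. As a measure of likeness, the SD over the 6 samples of the Ct difference between genes was taken for the 68 genes available, and a small SD means that the difference was steady. For *Slc27a1* the most alike were *Acaa1a*, a peroxisomal thiolase (SD 0.166 cycles), *Slc27a4* (0.198) and *Acad10* (0.212), against a median of 0.434 over all genes. For *Slc27a4* they were *Gpd1*, the glycerol phosphate dehydrogenase of the cytosol (0.176), *Acad10* (0.178) and *Slc27a1* (0.198), against a median of 0.365. *Lpl* was at rank 36 for *Slc27a1* and 33 for *Slc27a4*. The nearest to *Lpl* were *Acad9*, *Acadm* and *Prkaca*, with SDs of 0.0607, 0.0856 and 0.0871 cycles against a median of 0.257, and *Slc27a4* and *Slc27a1* stood at ranks 50 and 57. These are descriptions over 6 samples, each on its own plate and made from the same amount of RNA. As 3 samples were treated and 3 were not, the SDs over all 6 also hold the difference between the groups. Within the rmIL-15 group the SD was 0.23 cycles between *Slc27a1* and *Slc27a4*, and 0.17 between each of them and *Lpl*. Within the untreated group it was 0.06 between *Slc27a1* and *Slc27a4*. There it was 0.36 between *Slc27a1* and *Lpl* and 0.34 between *Slc27a4* and *Lpl*. The samples include untreated replicate 3, where *Slc27a1* and *Slc27a4* deviated by 1.08 and 0.91 cycles and *Lpl* by 0.33. The SDs over both groups were not computed without that library.

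**Figure D5:**
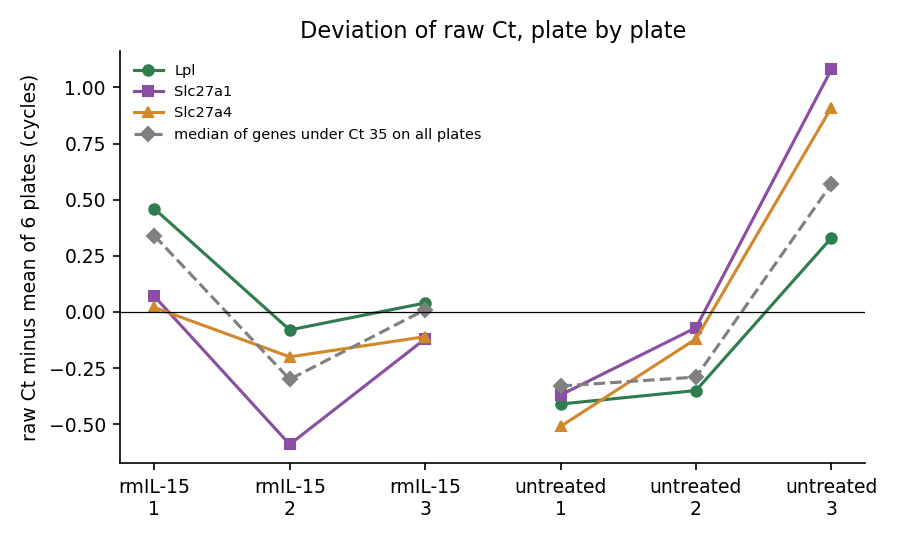
Raw Ct minus the gene's own mean over the 6 plates (vertical axis, cycles; positive means less RNA) for *Lpl*, *Slc27a1*, *Slc27a4* and the median of the genes below Ct 35 on all plates, at each sample. *Slc27a1* and *Slc27a4* rise together to 1.08 and 0.91 in untreated replicate 3, where *Lpl* is at 0.33 and the plate median at 0.57; the lines join samples for the eye and imply no order.

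The distance between *Slc27a1* and *Slc27a4* themselves, a comparison chosen after the values were seen, was 2.21, 2.64 and 2.27 cycles with rmIL-15 and 2.12, 2.22 and 2.10 cycles without. The groups overlapped, since untreated replicate 2 lay just inside the rmIL-15 range, and the difference of 0.23 cycles gave p = 0.2 in an exact permutation test.

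The genes that act next to uptake were listed by function: intracellular carriers, acyl-CoA synthetases, and the enzymes of lipolysis and glycerol. 17 of the 18 listed genes were on the plate and 12 were tested against *Gapdh*. None passed an adjusted p under 0.05 by limma. At an unadjusted p under 0.05, 1 was higher and 1 lower, beside 1 higher and 6 lower among the 74 genes (9.46%). The median difference of the 12 was −0.14, beside −0.11 for the plate. Among the 4 carriers tested, 2 signs were positive and 2 negative, from −0.19 to 0.68. *Fabp4*, the abundant carrier of adipocytes, was at 0.12 (standard error 0.16) and *Fabp2*, the intestinal carrier, at 0.68 (standard error 0.42), close to the limit at a mean Ct of 34.4. *Fabp2* entered the test only through the rmIL-15 group, since 2 untreated wells lay beyond 35 and were held there, so its value and the upper end of the carriers' range are set in part by the filter. Of the 5 synthetases, 4 signs were negative, with a median of −0.51. *Acsl1*, the main long-chain synthetase of fat cells, was at −0.52 (standard error 0.26, limma adjusted p = 0.58), and *Acsl3*, which is known from lipid droplet formation, at −0.51 (standard error 0.15, limma adjusted p = 0.47). Both were lower in all 3 rmIL-15 samples than in all 3 untreated ones, as *Lpl* was and as were 14.9% of the genes tested, of which 53 of 74 had a negative sign. Of the 3 genes of lipolysis and glycerol, *Lipe*, the hormone-sensitive lipase that releases stored fatty acids, was at 0.51 (standard error 0.16, limma adjusted p = 0.47), with every rmIL-15 sample above every untreated one, as for 2 of the 74 genes, and *Gpd1*, which makes the glycerol backbone for new triglyceride, at −0.07 (standard error 0.18, limma adjusted p = 0.92).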

How the data were processed

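One table deposited by the authors held the raw Ct of each well, in cycles, without normalization. A further table deposited by the authors held normalized values (log2, sign turned), in which a Ct over 35 had been replaced by 35. Its header and the methods name different references, and its values were equal to raw Ct minus the *B2m* well within 3.6e-15 cycles. It served as an alternative. The authors' table of fold changes and 6 further columns of per-sample values were not used. Plates were the fatty acid metabolism array of the RT2 Profiler kind, read with 1 Ct threshold throughout, per the methods. RefSeq identifiers of 89 wells were found in GRCm38.p6.

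Raw Ct was held at 35 and expressed as minus its difference from *Gapdh* or from *Lpl*. A gene was tested when at least 1 group had all 3 of its wells below 35. The tests used lmFit and eBayes of limma 3.58.1 (two-sided, R 4.3.3), adjusted by Benjamini-Hochberg over every gene tested. Single values had exact permutation tests over the 6 samples. Python 3.11.15 and matplotlib 3.10.9 made the figures.

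The members and lists were chosen with earlier results of these data known. From each of the 3 groups of the pathway list, the genes named are the one with the lowest mean Ct and the one with the smallest unadjusted p. As most alike, the 3 genes with the smallest SD are named. Alternatives were other references, Ct limits, gene filters and tests, a replicate block and leaving out each sample. PCR gives no read depth, and the number of plates, 3 a group, limits the precision. 1 gene of the marker list is not reported here.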

Additional observations from a re-analysis of the deposited data

Results flagged for a closer look

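*Slc27a5*, the liver-type FATP5, entered no comparison. In rmIL-15 replicate 1 its Ct was 33.9, the single well of the gene below the limit of 35, while the 3 untreated wells were undetermined, 37.42 and 39.82. The other 2 rmIL-15 wells, at 38.00 and 36.64, did not share this value, and it rests on 1 well without a repeat.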

How the results depend on the processing

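No gene of the plate passed an adjusted p under 0.05 in any of the 19 alternatives to the fit against *Gapdh*, with 2 to 8 genes at an unadjusted p under 0.05 and the smallest adjusted p between 0.084 and 0.76. *Lpl* was negative in all 19, from −0.66 to −0.21 (adjusted p 0.36 to 0.9), and had an unadjusted p under 0.05 in 6. *Slc27a1* was positive in all 19, from 0.05 to 0.58 (adjusted p 0.46 to 0.94). *Slc27a4* was positive in 18 and turned to −0.18 with *Hsp90ab1* alone, and the cause was not tested. *Slc27a3* lay between 0.04 and 2.89 in 18, and a filter on genes below Ct 35 in all samples left no value for it. Leaving out each sample in turn moved *Lpl* between −0.41 and −0.25, *Slc27a1* between 0.21 and 0.58 and *Slc27a4* between 0.01 and 0.36. Relative to *Lpl*, *Slc27a1* lay between 0.51 and 0.87 in 13 alternatives (adjusted p 0.22 to 0.64) and had an unadjusted p under 0.05 in 12 of them, the exception being without rmIL-15 replicate 2 (0.056). *Slc27a4* relative to *Lpl* lay between 0.31 and 0.65 in 13 (adjusted p 0.33 to 0.64) and had an unadjusted p under 0.05 in only 1 of them. *Slc27a3* relative to *Lpl* lay between 0.40 and 3.19 in 12.

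With the replicate number as a replicate block, the difference stayed −0.31 for *Lpl* (adjusted p = 0.74 by limma) and 0.71 for *Slc27a1* relative to *Lpl* (adjusted p = 0.46), and 4 genes in place of 7 had an unadjusted p under 0.05. The samples share only a number: same-numbered deviations correlated at −0.27, 0.09 and −0.27, and no sample correlated best with its own number.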
